A study of Homo sapiens with 6 samples.

Results

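TGF-beta and activin signalling genes were compared between A2780 cells with and without a hairpin against USP39. The group was set by name and holds 9 genes, namely the ligands TGFB1, TGFB2 and INHBA, the receptors TGFBR1 and TGFBR2, the receptor-activated SMAD2 and SMAD3, and the inhibitory SMAD6 and SMAD7. Of these 9 genes, 7 had rows in a table of 16571 gene symbols and were analysed. TGFB2 and SMAD6 were not analysed here. A2780 is an established human ovarian cancer line, labelled serous, and all 6 libraries came from this single line. The control group (pGIPZ-NC, n = 3) carried a control construct named pGIPZ-NC, and the knockdown group (shUSP39, n = 3) carried a hairpin against USP39, a spliceosome protein. Both constructs were brought in by lentivirus. Which hairpin sequence was used, and whether the infected cells were a pool or a clone, was not stated in the labels.

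TGF-beta and activin ligands are secreted dimers that bind a pair of type II and type I serine/threonine kinase receptors at the cell surface. The type I receptor phosphorylates SMAD2 and SMAD3, which then join SMAD4 and enter the nucleus to change transcription. SMAD6 and SMAD7 are induced by signals of the wider TGF-beta family and block such signals, so that they act as feedback inhibitors. In epithelial cancers the pathway is known both for growth arrest and for epithelial-mesenchymal transition. In the ovary, activins and inhibins are also known as regulators of granulosa cells and of follicle-stimulating hormone.

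The libraries held between 28294819 and 32939264 counts, and 3 counts in a library, taken as the floor, correspond to at most 0.106 CPM (the usual depth-scaled unit, a count over the library's total). A count was seen for 12662 to 12819 genes in the pGIPZ-NC libraries and shUSP39 replicate 1, and for 15446 and 14890 genes in shUSP39 replicates 2 and 3. USP39 itself was not analysed here, and the knockdown was therefore not checked in these libraries. Of the listed markers of ovarian cancer or Mullerian epithelium, PAX8, EPCAM and CDH1 had at most 6 counts in any library, whereas KRT18, KRT19 and VIM were expressed. At an adjusted p under 0.05 (edgeR) 16.1% of all tested genes rose and 17.5% fell. Of the 5 tested markers of this list 1 rose and 3 fell, VIM among the falls (log2 fold change -0.07). KRT18 rose from 22.2 to 33.1 CPM and KRT19 fell from 24.2 to 1.98 CPM, while KRT8 had 26 to 37 counts in the controls and at most 3 in shUSP39. MUC16 was not tested, as the filter left it out. It had 5, 1 and 1 counts in pGIPZ-NC replicates 1 to 3 and 6, 150 and 71 in shUSP39 replicates 1 to 3. The summed level of the whole list was between 11190 and 11288 CPM in the controls and between 10887 and 10964 CPM in shUSP39. Almost all of it was VIM, which is also a mesenchymal marker, so the sum does not show the level of the keratins. Of 7 tested among 8 fibroblast markers 4 fell and 1 rose, and their summed level was between 2535 and 2652 CPM in pGIPZ-NC and between 1255 and 1329 CPM in shUSP39. Almost all of this sum came from the collagens COL1A2 (means of 1149 and 462 CPM, controls first) and COL3A1 (1440 and 819 CPM). It therefore does not show the level of the other markers on the list. LUM and DCN also fell, while THY1 rose (means of 6.13 and 9.98 CPM, controls first, edgeR adjusted p 0.000475). COL1A1 and PDGFRB did not pass. FAP had 0 counts in every control and at most 4 in a shUSP39 library. The 6 immune markers (2 tested, 0 called) summed to between 9.32 and 12.0 CPM in the controls and between 11.5 and 12.2 CPM in shUSP39, and PTPRC and CD3E had at most 7 counts. The 4 endothelial markers, none of them high enough to be tested, summed to at most 0.434 CPM in the controls and 2.05 CPM in shUSP39. All libraries came from a single cell line, so these lists give levels of genes and not numbers of fibroblast, immune or endothelial cells. The part of these markers in the results below was not tested. In bulk RNA a smaller number of expressing cells and less RNA per cell cannot be told apart.

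None of the 7 genes passed the test between the groups. Every adjusted p given here without another tool's name is from the quasi-likelihood test of edgeR, adjusted by Benjamini and Hochberg over all 10695 genes tested, and a gene was said to rise or fall at an adjusted p under 0.05. By this rule 33.6% of all genes were called, 16.1% as higher and 17.5% as lower in shUSP39, while the adjusted p of the 7 genes lay between 0.155 and 0.984. No gene of the 7 had an unadjusted p under 0.05, and DESeq2 and limma-voom called 0 of 7 as well. With a 2-fold limit added, 6.81% of all genes were called. The log2 fold change was positive in 4 genes and negative in 3, and its median was 0.02, beside 0.01 over all genes. The width of the intervals differed between the 7 genes, and their counts ran from a mean of 10 to 14371 per library.

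TGFB1 encodes the TGF-beta ligand that is most widely expressed in tissues, and it was the only abundant gene of the group. It lies on chromosome 19 (41807492 to 41859827, minus strand, GRCh37), and some of its annotated exons overlap those of HNRNPUL1 on the other strand. Whether the counting used the strand is not given, so reads of HNRNPUL1 from the overlap could be among these counts. TGFB1 had 14416, 15990 and 13843 counts in pGIPZ-NC replicates 1, 2 and 3, and 14271, 14004 and 13700 counts in shUSP39 replicates 1, 2 and 3. All 6 libraries thus lay close together, and the groups overlapped. Its level averaged 474 ± 23.3 CPM in the controls and 459 ± 9.06 CPM after knockdown (SD, n = 3 each). Its fitted log2 fold change was -0.07 (SE 0.04, 95% interval -0.15 to 0.01) with an edgeR adjusted p of 0.155. The interval reached from 0.904-fold to 1.004-fold, so a change of the size of the 2-fold limit lay far outside it. Without pGIPZ-NC replicate 1, TGFB1 passed (log2 fold change -0.11, edgeR adjusted p 0.0213). TGFB1 ranked 412 among all gene symbols by mean count.

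INHBA encodes the beta A subunit, which forms activin A as a homodimer and inhibin A together with the alpha subunit. INHBA (chromosome 7, 41706766 to 41745432, minus strand, GRCh37) shares annotated exon sequence with the antisense transcript INHBA-AS1. It had 10, 12 and 14 counts in pGIPZ-NC replicates 1 to 3 and 5, 17 and 2 counts in shUSP39 replicates 1 to 3. The highest and the 2 lowest values were all in the shUSP39 group, so the groups overlapped. The mean was 0.390 ± 0.0949 CPM in the controls and 0.262 ± 0.263 CPM after knockdown (SD, n = 3 each). Its fitted log2 fold change was -0.58 with a 95% interval from -2.03 to 0.86, so neither a 2-fold fall nor an unchanged level lay outside it. Without shUSP39 replicate 2 the log2 fold change was -1.76 (adjusted p 0.160).

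**Figure D1:**
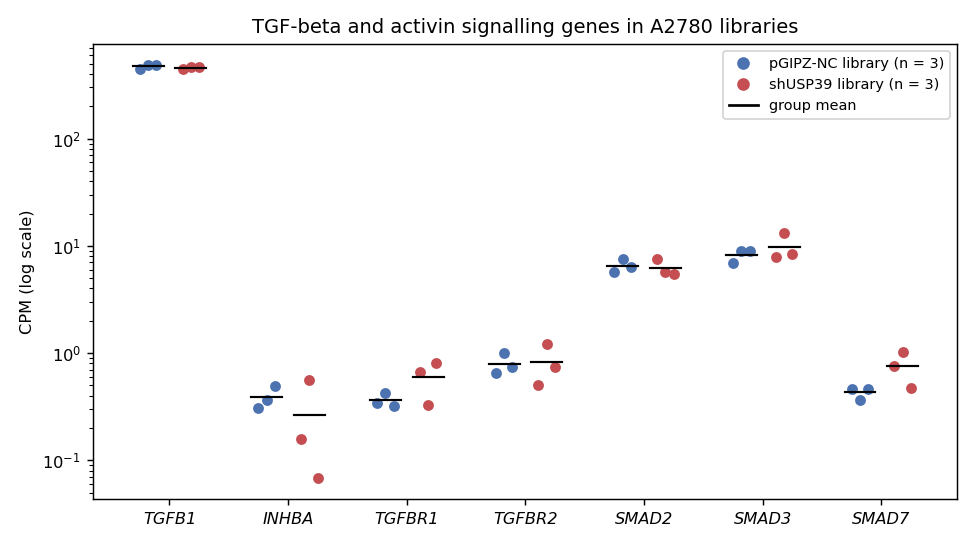
Level of the 7 measured genes in every library, in CPM on a log axis, with pGIPZ-NC in blue, shUSP39 in red and the group mean as a black bar (n = 3 each). TGFB1 averages 474 and 459 CPM in the groups, SMAD2 and SMAD3 between 5.44 and 13.1 CPM, and the other genes at or below 1.22 CPM, where the shUSP39 libraries spread more widely than the controls.

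Both TGF-beta receptors had few counts. TGFBR1 encodes the type I receptor ALK5 and TGFBR2 the type II receptor that binds the ligand first. TGFBR1 (chromosome 9, 101866320 to 101916474, plus strand, GRCh37) had 11, 14 and 9 counts in pGIPZ-NC replicates 1 to 3 and 21, 10 and 24 in shUSP39 replicates 1 to 3. The shUSP39 libraries 1 and 3 lay above all controls, and replicate 2 lay among them. The mean was 0.361 ± 0.0563 CPM in the controls and 0.602 ± 0.248 CPM after knockdown (SD, n = 3 each). Its log2 fold change was 0.70 (95% interval -0.47 to 1.87, adjusted p 0.379).

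TGFBR2 (chromosome 3, 30648093 to 30735634, plus strand, GRCh37) had 21, 33 and 21 counts in pGIPZ-NC replicates 1 to 3 and 16, 37 and 22 in shUSP39 replicates 1 to 3. Its lowest and its highest library were both shUSP39, and both groups had a mean of 25.0 counts. The log2 fold change was 0.02 with a 95% interval from -0.93 to 0.96, which just leaves out a 2-fold change in either direction. For both receptors the table held a row for a single transcript, NM_001306210.1 of TGFBR1 and NM_001024847.2 of TGFBR2, whereas a current RefSeq table lists 24 and 15 messenger RNA accessions. The counts therefore describe these transcripts. The other transcripts were not analysed here, and how reads shared between transcripts were counted is not stated.

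SMAD2 and SMAD3 are the transcription factors that both TGF-beta and activin receptors activate. SMAD2 (chromosome 18, 45335328 to 45457517, minus strand, GRCh37) had 183, 246 and 180 counts in pGIPZ-NC replicates 1 to 3 and 240, 173 and 160 in shUSP39 replicates 1 to 3. The library with the most reads of SMAD2 was thus a control by counts and shUSP39 replicate 1 by CPM (7.55 CPM), and the groups overlapped. Its log2 fold change was -0.08 (SE 0.17, 95% interval -0.43 to 0.27, adjusted p 0.755).

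SMAD3 (chromosome 15, 67356101 to 67487511, plus strand, GRCh37) had 223, 296 and 252 counts in pGIPZ-NC replicates 1 to 3 and 250, 397 and 248 in shUSP39 replicates 1 to 3. Only shUSP39 replicate 2 stood above the controls, at 13.1 CPM, while the other two libraries of that group lay within the control range. The mean was 8.27 ± 1.17 CPM in the controls and 9.81 ± 2.89 CPM after knockdown (SD, n = 3 each). Its fitted log2 fold change of 0.22 (95% interval -0.13 to 0.57, adjusted p 0.347) became -0.04 without shUSP39 replicate 2. A 2-fold change lay outside the interval of both SMAD2 and SMAD3. The full-length transcript NM_005902.3 carried 98.6% of the SMAD3 counts, and the 2 other transcripts with rows had at most 8 counts in a library. Annotated exons of SMAD3 also overlap those of a long non-coding RNA on the other strand.

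SMAD7 is the inhibitory SMAD that competes for the type I receptor and recruits ubiquitin ligases to it. SMAD7 (chromosome 18, 46446223 to 46477335, minus strand, GRCh37) had 15, 12 and 13 counts in pGIPZ-NC replicates 1 to 3 and 24, 31 and 14 in shUSP39 replicates 1 to 3. In CPM all shUSP39 libraries lay above all controls, but the lowest of them had 0.476 CPM and the highest control 0.465 CPM. Among all genes tested 44.5% showed such a separation in CPM, and 1 of the 7 genes did. The mean was 0.430 ± 0.0567 CPM in the controls and 0.752 ± 0.275 CPM after knockdown (SD, n = 3 each). Its fitted log2 fold change was 0.78 (SE 0.52, 95% interval -0.29 to 1.85, edgeR adjusted p 0.272). Taken transcript by transcript, NM_005904.3 held 85.3% of the SMAD7 counts and NM_001190822.1 held 12.8%. The latter had 0, 0 and 2 counts in pGIPZ-NC replicates 1 to 3 and 7, 4 and 1 in shUSP39 replicates 1 to 3, and was too low to be tested. In all, 7 of the 11 transcripts with rows were tested, 1 for each gene, and none passed, where 29.3% of all 12553 transcripts tested did.

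**Figure D2:**
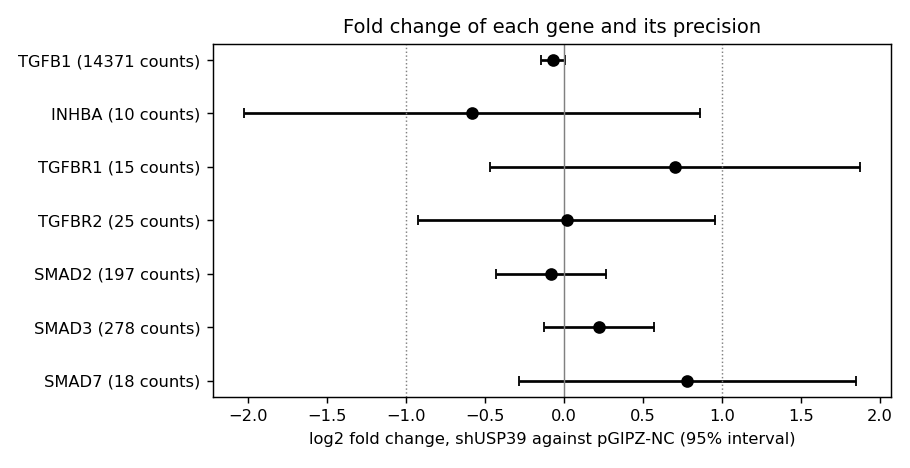
Fitted log2 fold change of each of the 7 genes, shUSP39 against pGIPZ-NC, with its 95% interval and, in brackets, the mean count per library. Dotted lines mark a 2-fold change. The interval of TGFB1 runs from -0.15 to 0.01, and those of INHBA, TGFBR1 and SMAD7 reach past a 2-fold change.

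Relative to transcript length, TGFB1 lay far above the others of the 7 genes. The length was that of the MANE Select transcript, the 1 transcript that Ensembl and RefSeq chose together for a gene. This length need not be that of the transcripts that were counted. TGFB1 had a median over the 6 libraries of 167 CPM per kilobase, 125 times the median of 1.34 CPM per kilobase of SMAD3, and the ranges of these 2 genes did not overlap. SMAD3 in turn lay 7.69 times above SMAD2, also without overlap. That step depends on the length of 34626 bases given for SMAD2. In CPM not scaled by length, SMAD2 (5.44 to 7.55 CPM) and SMAD3 (6.92 to 13.1 CPM) overlapped. SMAD2 (0.174 CPM per kilobase), TGFBR2 (0.164), SMAD7 (0.141), TGFBR1 (0.0590) and INHBA (0.0558) followed, and the range of each overlapped that of the next. Genes other than TGFB1 and INHBA have several RefSeq transcripts, so their levels could be too low if shared reads were left out.

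The genes whose values over the 6 libraries were most like those of TGFB1, the gene with the lowest p, were HCFC1, ZNF428 and PWP2. Likeness was the Euclidean distance of log2 CPM after each gene was centred on its pGIPZ-NC mean, taken over 6583 tested genes of at least 5 CPM. The distances were 0.0276, 0.0449 and 0.0488 on the log2 scale. Their own log2 fold changes were -0.08, -0.08 and -0.07, and none passed, with edgeR adjusted p values of 0.0551, 0.233 and 0.111. Fold changes near that of TGFB1 follow from the way these genes were chosen.

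The wider pathway around these 7 genes was then described with 6 lists of 96 genes in all. Of these, 85 had rows and 59 were tested. At the same threshold 17 (28.8%) rose and 10 (16.9%) fell, beside 16.1% and 17.5% of all genes, and the median log2 fold change was 0.03, beside 0.01 over all genes. Past the 2-fold limit there were 5 rises (LTBP1, NRROS, INHA, BAMBI and IL11) and 5 falls (NOG, BMP5, BMP7, SNAI2 and HMGA2). The other 32 tested genes did not pass. The split of calls by direction moved with scaling, since 58.0% of all genes called were higher in shUSP39 with upper-quartile scaling and 48.0% with the trimmed-mean scaling used here.

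**Figure D3:**
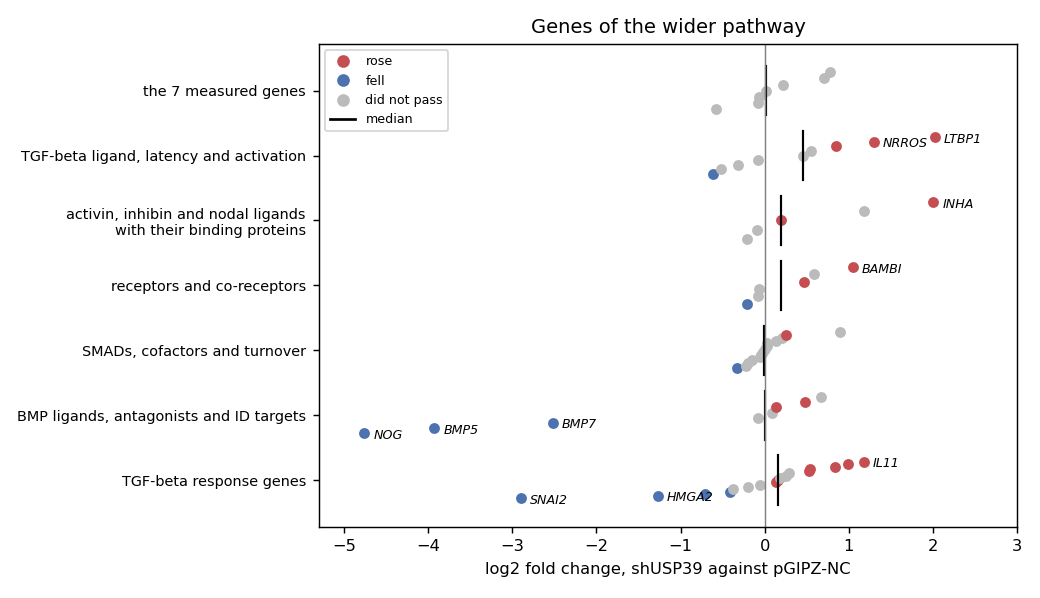
Fitted log2 fold change, shUSP39 against pGIPZ-NC, of the 7 genes and of the tested genes of 6 pathway lists. Red points rose, blue points fell, grey points did not pass an adjusted p of 0.05, and the black bar is the median of a list. Genes past the 2-fold limit are named, and none of the 7 genes is among them.

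Genes that hold TGF-beta ligands latent or release them changed in both directions. Of 9 tested genes 3 rose and 1 fell (33.3% and 11.1%, beside 16.1% and 17.5% of all tested genes), with a median log2 fold change of 0.46. LTBP1, a latent TGF-beta binding protein that anchors the ligand in the matrix, had 14, 67 and 12 counts in pGIPZ-NC replicates 1 to 3 and 114, 133 and 124 in shUSP39 replicates 1 to 3. All shUSP39 libraries lay above the controls, among which replicate 2 stood apart. LTBP1 was 4.06-fold higher (log2 fold change 2.02, SE 0.44, adjusted p 0.00239), and its log2 fold change was 3.20 without pGIPZ-NC replicate 2. LTBP4, a related binding protein, fell from 20.3 ± 2.02 to 13.5 ± 0.921 CPM (SD, n = 3 each) and its adjusted p was 4.26e-05 (log2 fold change -0.61). MMP14, a membrane-bound matrix protease, rose by 0.84 on the log2 scale (adjusted p 0.0147), but did not pass without pGIPZ-NC replicate 2 (0.117) or shUSP39 replicate 1 (0.0634). NRROS, which holds TGF-beta latent on myeloid cells and was chosen after its values were seen, was 2.45-fold higher (adjusted p 0.0420), from 7 to 16 counts in the controls to 27 to 34 counts in shUSP39. NRROS did not pass in any of the 6 fits that left out a library (adjusted p 0.0624 to 0.152). TGFB3, the third ligand, had 5 to 18 counts in a library and did not pass (log2 fold change 0.55, adjusted p 0.553).

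Among activin, inhibin and nodal ligands and their binding proteins, 5 genes were tested, of which 2 rose and none fell. These 2 were 40.0% of the tested genes of the list, where 16.1% of all tested genes rose and 17.5% fell. INHA encodes the inhibin alpha subunit, the partner of INHBA in inhibin A. INHA had 12, 8 and 17 counts in pGIPZ-NC replicates 1 to 3 and 38, 60 and 52 in shUSP39 replicates 1 to 3. All shUSP39 libraries lay above all controls, and the log2 fold change was 2.00 (SE 0.44, 95% interval 1.09 to 2.92, adjusted p 0.000752). FSTL3, a secreted protein that binds and neutralises activin, was abundant and rose slightly, from 153 ± 3.70 to 178 ± 4.90 CPM (SD, n = 3 each; log2 fold change 0.19, adjusted p 0.000871). FST, the other activin-binding follistatin, had at most 4 counts in a library, and INHBB, the beta B subunit, had at most 18. Neither was tested.

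Of 6 tested receptors and co-receptors 2 rose and 1 fell (33.3% and 16.7%, beside 16.1% and 17.5% of all tested genes). BAMBI, a decoy receptor without a kinase domain that dampens TGF-beta signals, had 618, 616 and 607 counts in pGIPZ-NC replicates 1 to 3 and 1218, 1317 and 1256 in shUSP39 replicates 1 to 3. The groups were far apart, with 19.8 ± 1.47 CPM against 41.5 ± 2.81 CPM (SD, n = 3 each), and the log2 fold change was 1.05 (SE 0.08, adjusted p 1.21e-10). ACVR2B, a type II activin receptor, rose from 29.4 ± 1.28 to 41.3 ± 1.15 CPM (SD, n = 3 each; log2 fold change 0.46, adjusted p 1.67e-05). BMPR1A, a type I receptor for bone morphogenetic proteins (BMPs), fell by 0.21 on the log2 scale (adjusted p 0.000190). ACVR2A, the other type II activin receptor, did not pass with 5 to 16 counts (adjusted p 0.939), and ACVR1B, the type I activin receptor ALK4, had at most 7 counts. TGFBR3 was not analysed here.

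Of 14 tested SMAD genes other than those above, cofactors and enzymes of SMAD turnover, 1 rose and 1 fell, beside 16.1% and 17.5% of all tested genes. The list had a median log2 fold change of -0.01, and none passed the 2-fold limit. SMAD4, the common partner of SMAD2 and SMAD3, had 90.6, 88.9 and 93.3 CPM in pGIPZ-NC replicates 1 to 3 and 75.2, 74.3 and 72.3 CPM in shUSP39 replicates 1 to 3. All shUSP39 libraries lay below all controls, and the log2 fold change of SMAD4 was -0.32 (SE 0.05, adjusted p 2.65e-05). SMURF2, a ubiquitin ligase that SMAD7 brings to the receptor, rose by 0.25 on the log2 scale (adjusted p 0.00863), and did not pass without pGIPZ-NC replicate 3 (0.0717). SKIL was not analysed here. The nuclear repressor SKI, chosen after its values were seen, did not pass (log2 fold change 0.03, adjusted p 0.610).

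The BMP branch, which signals through SMAD1, SMAD5 and SMAD9 and induces the ID genes, held the steepest falls of the 6 lists. Of 8 tested genes 2 rose and 3 fell (25.0% and 37.5%, beside 16.1% and 17.5% of all tested genes). NOG (noggin), a secreted antagonist that binds BMPs, is a gene of 1 exon on chromosome 17. It had 945, 928 and 822 counts in pGIPZ-NC replicates 1 to 3 and 36, 37 and 26 in shUSP39 replicates 1 to 3, and was 27.0-fold lower (log2 fold change -4.76, SE 0.14, adjusted p 1.50e-19). BMP5 had 93, 87 and 71 counts in pGIPZ-NC replicates 1 to 3 and 5, 0 and 11 in shUSP39 replicates 1 to 3, with a log2 fold change of -3.93 (adjusted p 5.66e-07). The fall in BMP5 was -5.02 without shUSP39 replicate 3. BMP7, named after its values were seen, fell from 2.54 ± 0.674 to 0.445 ± 0.185 CPM (SD, n = 3 each; log2 fold change -2.51, adjusted p 7.04e-06). ID3, an inhibitor of basic helix-loop-helix factors, rose from 1290 ± 44.3 to 1835 ± 67.1 CPM (SD, n = 3 each; log2 fold change 0.48, adjusted p 3.14e-12). ID1, also named after its values were seen, did not pass (log2 fold change 0.08, adjusted p 0.630).

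**Figure D4:**
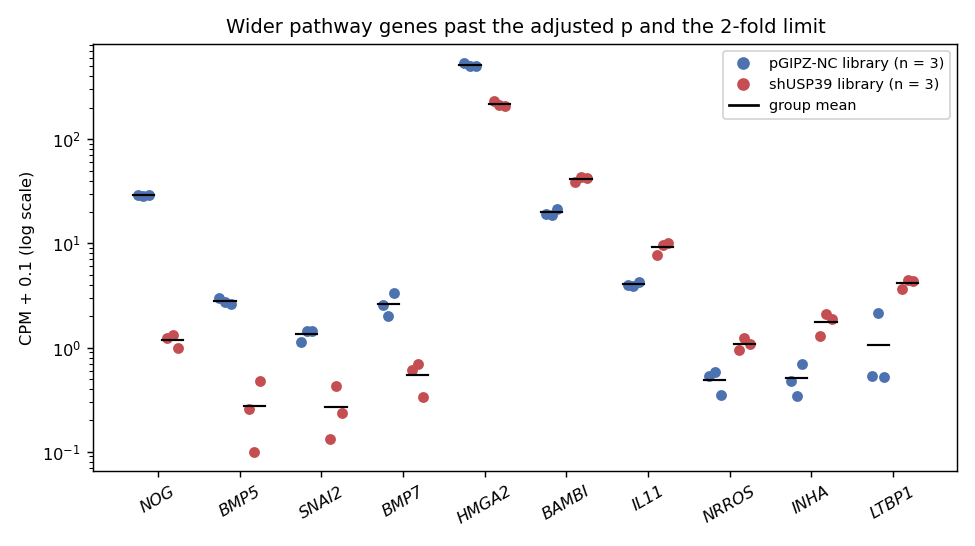
Level in every library of the 10 genes of the pathway lists past an adjusted p of 0.05 and the 2-fold limit, as CPM plus 0.1 on a log axis, with pGIPZ-NC in blue, shUSP39 in red and group means in black (n = 3 each). NOG falls from 28.8 to 1.08 CPM and BMP7 from 2.54 to 0.445 CPM, while BAMBI, IL11, NRROS, INHA and LTBP1 are higher in every shUSP39 library than in any control.

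Genes known to respond to TGF-beta moved in both directions. Of 17 tested genes 7 rose and 4 fell (41.2% and 23.5%, beside 16.1% and 17.5% of all tested genes), with a median log2 fold change of 0.16. The matricellular genes CCN1 and CCN2, listed in the table as CYR61 and CTGF, went opposite ways. CCN1 rose from 487 ± 8.57 to 882 ± 24.2 CPM (SD, n = 3 each; log2 fold change 0.83, adjusted p 4.55e-17), whereas CCN2, chosen after its values were seen, fell by 0.41 on the log2 scale (adjusted p 1.14e-06). HMGA2, the chromatin protein the study followed, had 534, 509 and 506 CPM in pGIPZ-NC replicates 1 to 3 and 230.0, 214 and 208 CPM in shUSP39 replicates 1 to 3. Its groups were far apart, and it fell by 1.27 on the log2 scale (adjusted p 4.68e-19). The study reports USP39 binding to HMGA2 transcripts and a lower splicing efficiency of HMGA2 after knockdown. Whether TGF-beta signals have a part in the fall of HMGA2 was not tested. ACTA2, the smooth muscle actin of contractile cells, fell from 99.7 ± 1.08 to 62.0 ± 4.41 CPM (SD, n = 3 each; log2 fold change -0.71, adjusted p 2.78e-10).

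The following response genes were chosen after their values were seen. IL11, a cytokine, rose from 3.94 ± 0.187 to 9.07 ± 1.25 CPM (SD, n = 3 each; log2 fold change 1.18, adjusted p 1.85e-06). TAGLN rose, whereas ACTA2 fell, and went from 6.57 ± 0.543 to 9.72 ± 0.469 CPM (SD, n = 3 each; log2 fold change 0.54, adjusted p 0.00345). JUNB (log2 fold change 0.16, adjusted p 0.00467) and BHLHE40 (0.13, adjusted p 0.0301) rose slightly, and BHLHE40 did not pass under 4 of the alternatives. PMEPA1, a SMAD-binding feedback inhibitor, rose by 0.99 on the log2 scale (adjusted p 0.00836), and did not pass without shUSP39 replicate 3 (0.0518). SNAI2, a repressor active in epithelial-mesenchymal transition, had 33, 44 and 38 counts in pGIPZ-NC replicates 1 to 3 and 1, 10 and 4 in shUSP39 replicates 1 to 3. Its log2 fold change of -2.90 (adjusted p 0.000295) became -3.87 without shUSP39 replicate 2. SNAI1, its paralogue with a like role, rose instead, from 13.8 ± 1.56 to 20.3 ± 0.637 CPM (SD, n = 3 each; log2 fold change 0.53, adjusted p 0.000221). TWIST1, another factor of the transition, did not pass (log2 fold change -0.38, adjusted p 0.641).

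SMAD7 and BAMBI are both feedback inhibitors known to be induced through SMAD proteins, and their promoters are shown because the first is 1 of the 7 genes and did not pass while the second rose. The letters searched were CAGAC and its reverse complement GTCTG, the short form of the site that SMAD3 and SMAD4 bind. Sequences are the 250 bases before the start of transcription from RefSeq (GRCh38.p14), 5′ to 3′ on the gene's strand, with matches in capitals. SMAD7 has 3 listed starts, whose windows held 2, 1 and 0 matches, and the one with the most matches is printed. That SMAD7 window is chr18:48950966-48951215 (minus strand) and the BAMBI window chr10:28677271-28677520 (plus strand).
SMAD7: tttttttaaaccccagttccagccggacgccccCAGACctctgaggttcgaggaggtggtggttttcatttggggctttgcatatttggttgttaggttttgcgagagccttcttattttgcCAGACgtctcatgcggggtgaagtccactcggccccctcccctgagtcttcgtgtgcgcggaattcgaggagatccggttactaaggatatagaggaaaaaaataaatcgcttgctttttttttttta
BAMBI: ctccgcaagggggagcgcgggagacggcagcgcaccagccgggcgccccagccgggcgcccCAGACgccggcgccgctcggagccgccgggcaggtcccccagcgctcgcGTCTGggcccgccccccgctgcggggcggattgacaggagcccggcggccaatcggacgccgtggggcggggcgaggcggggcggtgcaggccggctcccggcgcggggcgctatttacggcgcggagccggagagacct
Each printed window held 2 matches, with first bases at positions -217 and -128 in SMAD7 and -189 and -140 in BAMBI, where -1 is the base before the start. Of 35116 such windows in the RefSeq table, 38.0% held a match and 8.64% held at least 2. Over all starts listed for the 7 genes, 8 of 22 windows (36.4%) held a match, and the window of TGFB1 held none. These matches are letters in a window and do not show binding.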

How the data were processed

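RNA was measured by RNA-seq in 6 libraries of A2780 cells, 3 pGIPZ-NC and 3 shUSP39, grouped by sample title. The authors deposited a table of raw counts with a row for each RefSeq messenger RNA and a column for each library. HISAT2, Cufflinks and the build hg19 are named in the submitters' processing notes, and the counter, the use of strand and the treatment of shared reads are not given in the sources used here. Every row held at least 1 count. Deposited group means and columns of fold change, p-value and q-value were not used.

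Counts were summed per gene symbol (21368 rows, 16571 symbols; 46 of 47 date-like symbols were renamed by accession). The test was edgeR 4.0.16 (R 4.3.3) with filterByExpr, TMM scaling, robust quasi-likelihood and group as the only term. The standard error is the absolute log2 fold change divided by the square root of F, and the 95% interval uses the fit's degrees of freedom. Transcripts were fitted in the same way. Usage of transcripts could not be tested in any of the 7 genes, since each had 1 tested transcript. The fit was tested on simulated data. The study describes the libraries of a group as biologically independent samples of the same cell line, and p-values measure the spread between them.

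Coordinates and lengths came from GENCODE release 44 mapped to GRCh37, and sequences from RefSeq tables. The genes and lists were chosen with earlier results of these data known. Named from each list were up to 3 genes with the lowest adjusted p below 0.05 whose higher group averaged at least 1 CPM, and 8 partners of the 9 genes; others are marked. 1 response gene of the planned lists is not reported here and was left out of the list counts. Alternatives were DESeq2 1.42.0 (size factors and Wald test), scaling by upper quartile or by library total, keeping all genes, a minimum of 10 counts per library, limma-voom (limma 3.58.1), the highest transcript, a 2-fold limit, a replicate block and each library left out in turn.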

Additional observations from a re-analysis of the deposited data

How the results depend on the processing

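None of the tested genes of the 7 was called under 15 of the 16 alternatives (a minimum of 10 counts per library left 5 to test), and 1 (TGFB1) was called without pGIPZ-NC replicate 1, so the count ran from 0 to 1 over the fits that left out a library, as it did for transcripts. Log2 fold changes over these fits lay between -0.11 and -0.0540 in TGFB1, 0.43 and 0.99 in TGFBR1, -0.38 and 0.27 in TGFBR2, -1.76 and -0.14 in INHBA, -0.25 and 0.0278 in SMAD2, -0.0438 and 0.35 in SMAD3, and 0.50 and 1.02 in SMAD7. TGFBR2 was also -0.0287 with the replicate block and -0.0600 with limma-voom, neither past the threshold, and ACVR2A ran from -0.44 to 0.26 over the fits that left out a library and was 0.0394 with limma-voom. The replicate block called 3981 genes in place of 3598 and none of the 7 genes, whose lowest adjusted p was then 0.0535 in TGFB1. Deviations of same-numbered libraries from their group means had correlations across genes of 0.0688, 0.00477 and 0.0216. The labels do not state whether same-numbered libraries were prepared together. These correlations cannot decide it, since a value taken across all genes can be low while some genes share an effect of the replicate. Same-numbered libraries were not taken as pairs in the main fit. The causes of these shifts were not tested.

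Adding the 2-fold limit, by construction, left 728 genes, and in the pathway lists 2 for latency, 1 for activins, 1 for receptors, 0 for SMADs, 3 for BMPs and 3 for response genes. With at least 10 counts in every library 1 activin gene and 3 BMP genes were called, where 3 and 6 were tested. Over the fits that left out a library the called number ran from 3095 to 3571 genes, from 2 to 3 for latency (4 with all libraries), 2 to 3 for activins, 1 to 3 for SMADs, 4 to 6 for BMPs and 10 to 11 for response genes. INHBA, TGFBR1, TGFBR2 and SMAD7 had mean counts of 25.0 or fewer and the widest intervals of the 7 genes.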
